A study of Mus musculus with 6 samples.

Results

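The cytosolic ribosomal protein genes were taken from the expression table by name: a symbol of the form Rpl or Rps with a number, followed by nothing or by the letter a, x or l, together with Rplp0, Rplp1, Rplp2 and Rpsa. The rule found 81 of 25102 genes, of which 32 belong to the small subunit, 46 to the large subunit and 3 to the stalk. Poly(A) RNA was measured in 6 mouse liver libraries, 3 of the DEN+CCl4 group and 3 of the control group. All came from male C57BL/6J animals that were 2 weeks old when the experiment began. The DEN+CCl4 mice received diethylnitrosamine, a carcinogen activated in hepatocytes, once at 1 mg/kg, and from about 6 weeks later carbon tetrachloride, a hepatocyte toxin, at 0.2 mL/kg by the same intraperitoneal route, 2 times a week for at most 14 weeks. The control mice were the other arm of the same randomization, and the labels do not name a vehicle. The labels describe a model of hepatocellular carcinoma but leave unsaid whether tumour, surrounding liver or both were taken. Separate animals are not stated beyond the replicate numbers, so the p-values speak for these libraries, whose spread may be technical. Livers and n in what follows count libraries.

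Ribosomal proteins join ribosomal RNA to form the small subunit, which reads the message, and the large subunit, which joins amino acids. Their messages belong to the terminal oligopyrimidine (TOP) class, which begins with a C followed by a run of C and T and whose translation is switched by mTORC1, the nutrient-sensing kinase complex. Poly(A) RNA gives the amount of the message and not how much of it is translated. Ribosomal protein genes are also the parents of very many processed pseudogenes, whose sequences are close to the parent message.

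The starts of the messages are shown because they hold the feature that defines the class. Each line gives 30 bases before the annotated start and 20 bases from it, on the coding strand of GRCm38.p6, from RefSeq. Capitals mark runs of at least 7 C or T that open with C, and the letters CTTTC. All genes shown but Rpl3l carry such a run at or close to the start. Rps27l is a duplicated gene of the small subunit, and Rpl39l and Rpl3l are the tissue-limited paralogs that were close to 0 in these livers. The 8 genes were picked after their sequences had been seen.
Rps6 (chr4:86857348-86857397, minus strand): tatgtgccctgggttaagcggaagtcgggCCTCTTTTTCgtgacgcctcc
Rplp2 (chr7:141447621-141447670, plus strand): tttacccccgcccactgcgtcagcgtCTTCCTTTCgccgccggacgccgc
Rpl38 (chr11:114668550-114668599, plus strand): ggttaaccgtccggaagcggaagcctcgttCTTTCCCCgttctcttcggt
Rps27 (chr3:90213629-90213678, minus strand): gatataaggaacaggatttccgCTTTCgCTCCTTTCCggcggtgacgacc
Rpl28 (chr7:4792935-4792984, plus strand): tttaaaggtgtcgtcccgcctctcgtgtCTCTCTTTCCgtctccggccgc
Rps27l (chr9:66946056-66946105, plus strand): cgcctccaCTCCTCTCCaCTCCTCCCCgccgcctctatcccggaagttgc
Rpl39l (chr16:10170198-10170247, plus strand): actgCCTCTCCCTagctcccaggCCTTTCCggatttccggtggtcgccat
Rpl3l (chr17:24727796-24727845, plus strand): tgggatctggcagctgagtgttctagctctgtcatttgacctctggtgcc

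Start regions were matched for 59 of the 81 genes. Within 20 bases on either side of an annotated start, on the coding strand alone, CTTTC occurred in 19 of them, or 32.2%, against 6.44% of all 27023 genes with a start region. A run of at least 7 C or T opening with C occurred in 57.6% of the ribosomal protein genes and in 21.4% of all genes. The motif can lie inside such a run, so the counts overlap, and a match describes letters in a window.

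In none of the 79 tested genes did the level differ between the DEN+CCl4 and control livers beyond the spread between libraries. With limma on log2(FPKM + 1) and Benjamini-Hochberg adjustment over 8528 genes, 0 ribosomal protein genes were called higher, against 0.833% of all tested genes, and 0 were called lower, against 0.645% (1.48% in either direction). At an unadjusted p under 0.05 stood 1 of them, Rps4l, against 7.60% of all tested genes. The smallest adjusted p was 0.229, for Rps4l, and the next was 0.996. Of the 79 genes, 78 had a fold change within 1 log2 unit of 0, but the median standard error of the log2 fold change was 0.92, so a change of that size was not detectable in most of them. Rpl3l and Rpl39l, with means under 1 FPKM, were not tested.

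The direction in which the genes leaned depended on how the libraries were scaled. FPKM, which scales fragments by gene length and library total, makes all other genes look low in a library where a few genes take a large share. As deposited, 20 of the 79 genes had a positive log2 fold change and 59 a negative one, with a median of -0.21, beside a median of -0.27 for all tested genes. After median-ratio scaling, in which a library's values are divided by their median ratio to the geometric means of the genes, 67 were positive and 12 negative, with a median of 0.26, beside 0.01 for all tested genes. On that scale 0 ribosomal protein genes passed and the smallest adjusted p was 0.466, again for Rps4l. Of all tested genes 0 passed too (0% higher and 0% lower), while 10.7% had an unadjusted p under 0.05, as had 1 ribosomal protein gene.

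**Figure D1:**
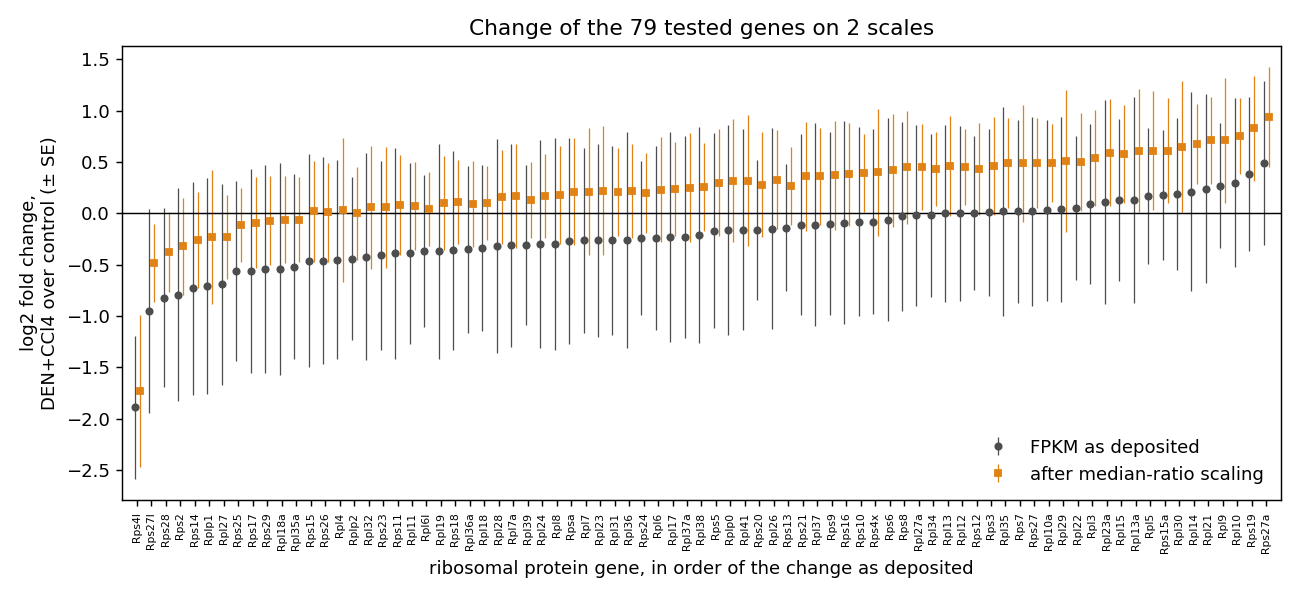
Log2 fold change of DEN+CCl4 over control with its standard error for the 79 tested genes, ordered by the change in FPKM as deposited (grey circles) and shown again after median-ratio scaling (orange squares). The squares lie above the circles throughout, and Rps4l at the left, at -1.89 and -1.73, stands apart from the rest on both scales.

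The median ribosomal protein gene differed from library to library within each group, and after median-ratio scaling the genes were spread most widely in DEN+CCl4 replicate 3. As deposited, the median gene of DEN+CCl4 replicates 1, 2 and 3 deviated by 0.26, -0.02 and -0.76 log2 units from its level averaged over the controls, and that of control replicates 1, 2 and 3 by 0.36, -0.59 and 0.25 units. The median of all tested genes deviated by 0.08, 0.17 and -1.06 units in the DEN+CCl4 libraries and by -0.02, -0.01 and 0.06 units in the controls. It thus fell further than the ribosomal protein genes in DEN+CCl4 replicate 3, and did not share their fall in control replicate 2. The lowest value of a gene fell in DEN+CCl4 replicate 3 for 46 genes and in control replicate 2 for 33 genes. After median-ratio scaling the medians were 0.16, -0.21 and 0.91 in the DEN+CCl4 libraries and 0.39, -0.54 and 0.18 in the controls. DEN+CCl4 replicate 3 changed from lowest to highest, holding the highest value of 57 genes, while control replicate 2 held the lowest value of 65 genes.

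**Figure D2:**
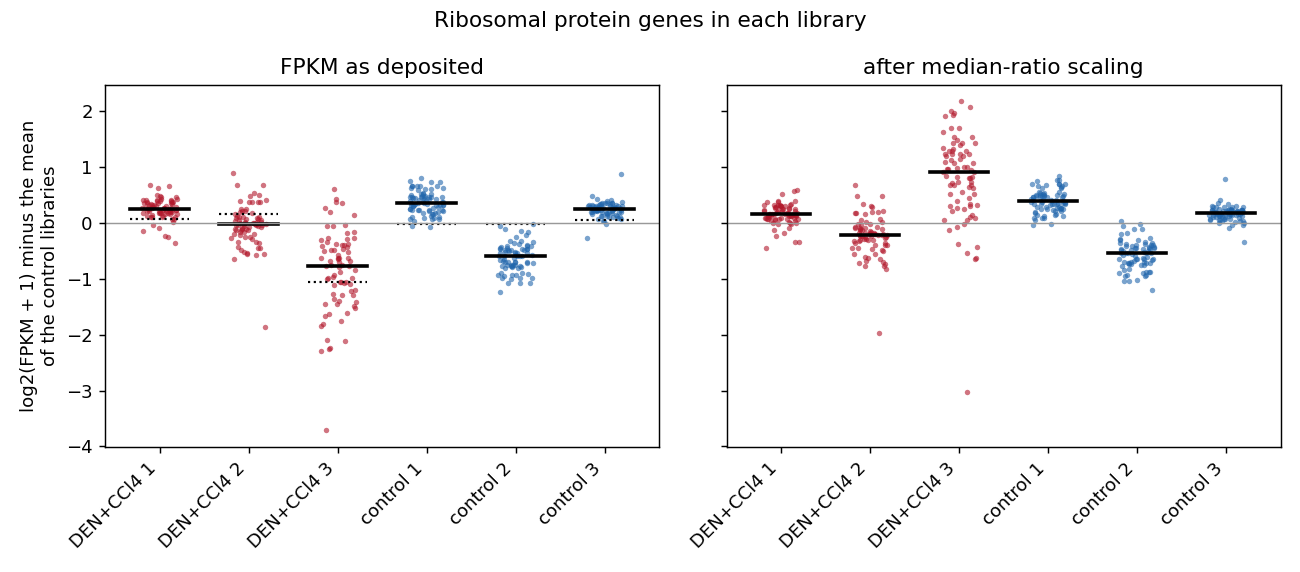
Deviation of each of the 79 tested genes from its own control mean, in log2(FPKM + 1), by library, for FPKM as deposited (left) and after median-ratio scaling (right). Points are genes, solid bars their median, and dotted bars (left) the median of all tested genes. DEN+CCl4 replicate 3 lies below the controls on the left and above them on the right, with the widest spread, and control replicate 2 lies low on both sides.

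DEN+CCl4 replicate 3 stood apart as a library. Mitochondrially encoded genes took 64.2% of its FPKM, against 36.9% and 40.6% in DEN+CCl4 replicates 1 and 2 and 26.6%, 43.0% and 31.8% in control replicates 1, 2 and 3. In it 16447 genes had a value above 0, against 19260 to 20634 in the other 5 libraries. All 9 hepatocyte markers that the table lists, such as albumin (Alb), were above 0 in every library, as the liver label has it. As deposited, Ttr (transthyretin) had 4130.2, 2103 and 219 FPKM in the DEN+CCl4 livers and 4175, 2891 and 6045 FPKM in the controls, and Cps1, an enzyme of the urea cycle, had 111, 43.9 and 12.9 FPKM in the DEN+CCl4 livers and 119.5, 121 and 121 FPKM in the controls. DEN+CCl4 replicate 3 was thus lowest for both as deposited, and neither passed (adjusted p of 0.710 for Ttr and 0.872 for Cps1 by limma). The 9 hepatocyte markers as a set were not low in it after median-ratio scaling. They summed to 27324, 52869.8 and 42119 FPKM in the DEN+CCl4 livers and to 37399, 27317 and 39987 FPKM in the controls. Their median scaled deviation in DEN+CCl4 replicate 3 was 0.44 log2 units, beside 0.43 in control replicate 1. After median-ratio scaling, which divides DEN+CCl4 replicate 3 by 0.356, the summed levels of most other cell types were highest in it. Those of macrophages and red cell precursors were not. The summed elongation and initiation factors were also highest there, so this rank was not particular to a cell type. As deposited, the neutrophil genes summed to 20.2, 9.24 and 24.9 FPKM in the DEN+CCl4 livers and to at most 8.52 FPKM in the controls. The cholangiocyte genes summed to 14.9, 39.4 and 45.9 FPKM, and to at most 16.5 FPKM. After median-ratio scaling the 7 listed neutrophil genes summed to 15.8, 6.74 and 69.9 FPKM in the DEN+CCl4 livers, against 7.30, 3.33 and 2.24 FPKM in the controls. The 8 cholangiocyte genes summed to 11.7, 28.7 and 129 FPKM in the DEN+CCl4 livers and to 14.1, 9.17 and 7.35 FPKM in the controls, with Spp1 and Tspan8 making up most of the sum in DEN+CCl4 replicate 3. Krt7, Krt19 and Epcam, which also mark cholangiocytes, went the other way: as deposited they were at 0.03, 0.13 and 0 FPKM in that library, the lowest of the 6 for each. Cftr was at 0 in control replicate 1 and Tspan8 in control replicates 1 and 2. Of the neutrophil genes, Mmp8 was at 0 in DEN+CCl4 replicate 2, Camp and Ngp were at 0 in control replicates 2 and 3, and Mmp8 was at 0 in control replicate 2. By limma 1 of the 3 neutrophil genes tested, S100a8, and 1 of the 3 cholangiocyte genes tested, Tspan8, were called higher. S100a8 and Tspan8 had control means of 0.507 and 0.00667 FPKM, so they passed the filter of 1 FPKM only through the DEN+CCl4 livers. These shares therefore cannot be weighed against the 0.833% of all tested genes called higher. Of the genes of stellate cells and fibroblasts 0 of 6 were called, with a median log2 fold change of 0.83. The 9 genes of B cells and plasma cells summed to 173, 449 and 480.1 FPKM after scaling in the DEN+CCl4 livers and to 74.3, 89.8 and 67.1 FPKM in the controls, most of it Igkc, with Ms4a1 at 0 in DEN+CCl4 replicate 3 and control replicate 1. Those sums did not overlap between the groups, while 0 of the 3 genes tested passed (median log2 fold change 1.31). The part of the mitochondrial share and of these cell types in the results was not tested. In bulk liver, fewer cells of a type and less RNA per cell cannot be told apart.

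As a share of the FPKM of all genes outside the mitochondrial genome, the 81 genes took 1.51%, 1.42% and 0.649% in DEN+CCl4 replicates 1, 2 and 3, and 1.36%, 0.895% and 1.47% in the controls. The groups overlapped fully, at 1.19% ± 0.473 in DEN+CCl4 livers and 1.24% ± 0.304 in control livers (SD, n = 3 each). Without DEN+CCl4 replicate 3 the difference, DEN+CCl4 minus control, was 0.227 percentage points, and without control replicate 2 it was -0.218 points, against -0.0456 points with all libraries.

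Among the genes of the small subunit, 6 of 32 had a positive log2 fold change as deposited (median -0.16) and 24 of 32 after median-ratio scaling (median 0.28). Among those of the large subunit, 14 of the 44 tested were positive as deposited (median -0.22) and 41 after scaling (median 0.25). The subunits were thus alike in how they leaned on each scale, and neither gave a call.

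The stalk proteins, which bring elongation factors to the ribosome, showed how far a library could move a gene. Rplp1 stood at 425, 252 and 109.5 FPKM in the DEN+CCl4 livers 1, 2 and 3 and at 622, 158 and 525 FPKM in control livers 1, 2 and 3. Rplp0, often used as a reference gene, had 106, 98.7 and 69.5 FPKM in the DEN+CCl4 livers and 160.1, 52.9 and 119 FPKM in the controls. Rplp2 had 22.4, 11.5 and 6.69 FPKM in the DEN+CCl4 livers and 24.7, 9.83 and 19.3 FPKM in the controls. Control replicate 2 was the lowest control in all 3 genes and every group overlapped the other. Their log2 fold changes as deposited were -0.71 (SE 1.05), -0.16 (SE 1.02) and -0.44 (SE 0.79) for Rplp1, Rplp0 and Rplp2, each with an adjusted p of 0.996 by limma, and all 3 were negative, whereas after median-ratio scaling they were at -0.23, 0.32 and 0.00.

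The highest level belonged to Rps15, a protein of the small subunit's head, with 682, 648 and 162 FPKM in the DEN+CCl4 livers and 608, 445 and 686 FPKM in the controls. Next by mean level over the 6 libraries, a scale that is per length, came Rpl36 at 359 FPKM, Rplp1 at 348 FPKM and Rpl38 at 214 FPKM. Rpl38 is known in mice for the patterning of the axial skeleton. These 4 genes held 28.2%, 30.1% and 19.2% of the summed FPKM of the ribosomal protein genes in DEN+CCl4 replicates 1, 2 and 3 and 26.0%, 29.4% and 28.4% in the controls, so their weight was lowest in the library that stood apart. The means of the 79 tested genes ran from 5.01 FPKM for Rpl9 to 538 FPKM for Rps15, a 108-fold range with a median of 36.7 FPKM, although assembled ribosomes hold these proteins in near-equal numbers. The mean was over 100 FPKM for 14 genes and under 10 FPKM for 6.

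The sequences of many of these genes occur more than once in the annotation. Of the 79 protein-coding and 2 pseudogene members matched to GENCODE M21, 41 had at least 1 other annotated gene that holds 50% or more of the 31-base words of their message, and for 55 fewer than 50% of their words were found in no other gene. The table lists 119 such copies besides the members, and they took 33.6%, 33.3% and 31.9% of the FPKM of members plus copies in the DEN+CCl4 livers and 32.6%, 32.6% and 32.9% in the controls. In 23 genes the copies summed to more than the gene itself. Words were matched on either strand, and the copies include protein-coding genes of other names, such as Uimc1 for Rpl29 and Wdr38 for Rpl35. For Rpl6l, one of the 23, the largest copy is Rpl6, itself a member, at a mean of 33.4 FPKM. How the submitters' alignment shared reads between a gene and its copies is not given in the sources used here, so the level of each such gene is uncertain. The genes without a copy had a median log2 fold change of -0.26 (38 genes) and those with copies -0.08 (41 genes), and after median-ratio scaling 0.21 and 0.39, so both leaned the same way on each scale.

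**Figure D3:**
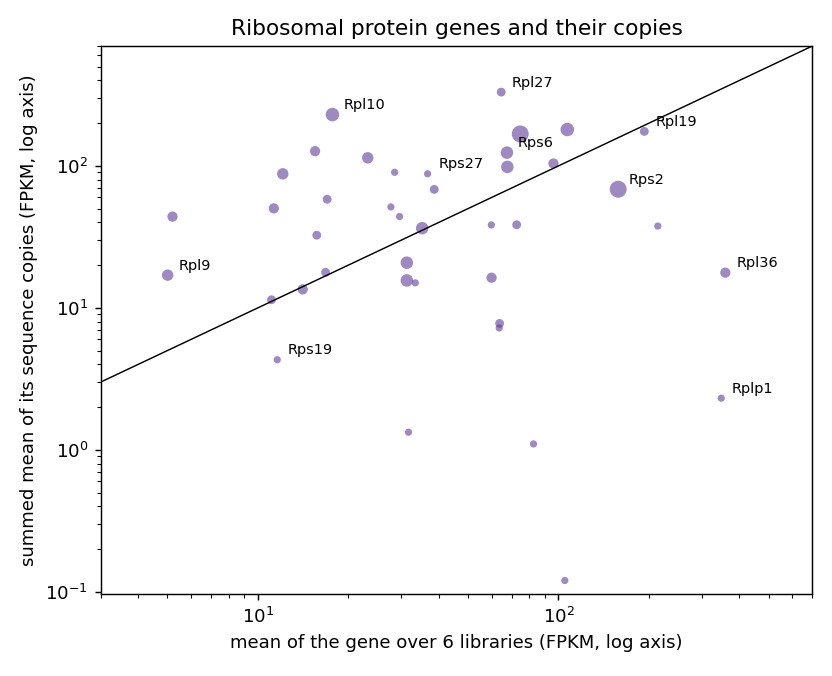
Mean FPKM of the 41 ribosomal protein genes with sequence copies (horizontal, log axis) against the summed mean FPKM of those copies (vertical, log axis), with larger points for more copies. The line marks equality. Rpl10 and Rpl27 lie far above it and Rplp1 and Rpl36 far below it.

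Rpl10, a late-joining large subunit protein needed for the subunits to meet, had the most FPKM in copies relative to its own. It had 22.0, 25.3 and 12.6 FPKM in the DEN+CCl4 livers and 16.3, 13.8 and 16.2 FPKM in the controls, while its 6 copies in the table summed to 309, 239.7 and 102 FPKM in the DEN+CCl4 livers and to 301, 144 and 284 FPKM in the controls. The largest copy, Rpl10-ps3, averaged 124 FPKM and holds 92.3% of the words of Rpl10. Rps6, the substrate of S6 kinase, had 72.8, 69.6 and 51.2 FPKM in the DEN+CCl4 livers and 90.1, 40.7 and 80.2 FPKM in the controls, below its copy Rps6-ps4, which averaged 116 FPKM. Rpl10 had a log2 fold change of 0.30 (SE 0.82) and Rps6 one of -0.06 (SE 0.99), with adjusted p of 0.996 and 1.00 by limma, and Rps6 was at 0.42 after median-ratio scaling.

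The 5 highest log2 fold changes as deposited belonged to Rps27a, Rps19, Rpl10, Rpl9 and Rpl21, at 0.49, 0.38, 0.30, 0.27 and 0.24. Rps19, mutated in human Diamond-Blackfan anaemia, had 13.3, 13.3 and 13.0 FPKM in the DEN+CCl4 livers and 11.2, 7.80 and 11.2 FPKM in the controls. Rps27a, made as a fusion with ubiquitin, had 21.1, 18.4 and 15.6 FPKM in the DEN+CCl4 livers and 16.3, 8.95 and 13.9 FPKM in the controls. As deposited, Rps19 was nearly level across the DEN+CCl4 livers, including the replicate in which most other genes were lowest. Median-ratio scaling removed that evenness: Rps19 then deviated by 2.01 log2 units in DEN+CCl4 replicate 3, against 0.30 in replicate 1 and 0.20 in replicate 2. Rps27a overlapped between the groups. Neither passed (SE 0.75 for Rps19 and 0.80 for Rps27a, adjusted p of 0.996 by limma for both).

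Rps19 was the only gene of the 79 whose DEN+CCl4 values all lay above the control values, against 3.01% of all tested genes, and for 0 genes they all lay below, against 5.35% (8.36% either way). After median-ratio scaling Rpl10, Rpl14, Rpl21, Rpl38 and Rps19 had all DEN+CCl4 values above the controls, or 5 of 79 against 7.63% of all tested genes, and Rps27l had them all below, or 1 against 6.52%. None of these shares is above its background. Quantile normalization gave 22 genes wholly above, against 7.69%, a larger share than the background, and 0 wholly below, against 7.18%. Without control replicate 2, as deposited, 31 of the 79 genes lay wholly below the remaining controls, a larger share than the 22.1% of all tested genes, and 1 above, against 4.93%. Without DEN+CCl4 replicate 3, 11 lay wholly above, against 17.7%, and 0 below, against 5.51%. The counts thus moved with the scaling and with the library left out.

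The 5 lowest log2 fold changes belonged to Rps4l, Rps27l, Rps28, Rps2 and Rps14, at -1.89, -0.95, -0.82, -0.79 and -0.73, and in every one of them the level in DEN+CCl4 replicate 3 was the lowest of the 6 libraries. Rps2, a small subunit protein near the path by which the message enters, had 189, 127 and 50.8 FPKM in the DEN+CCl4 livers and 232, 123 and 225 FPKM in the controls. Rps28 had 37.0, 23.0 and 5.95 FPKM in the DEN+CCl4 livers and 37.6, 22.4 and 37.5 FPKM in the controls. For both, DEN+CCl4 replicate 2 lay close to control replicate 2, and the adjusted p was 0.996 by limma (SE 1.04 for Rps2 and 0.87 for Rps28).

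Rps4l (chr6:148354656-148355598, plus strand) was the gene with the largest difference. GENCODE M21 annotates it as a transcribed processed pseudogene, and 74.0% of its words occur in no other gene, so its reads can largely be told from those of the X-linked Rps4x. Rps4l was at 14.5, 3.53 and 0.260 FPKM in the DEN+CCl4 livers 1, 2 and 3 and at 16.8, 7.38 and 29.3 FPKM in control livers 1, 2 and 3. DEN+CCl4 replicates 2 and 3 lay below all controls, and replicate 1 lay within their range. The log2 fold change was -1.89 (SE 0.70, limma adjusted p = 0.229, range 0.00865 to 1.00 over the alternatives), and it was -2.79 without DEN+CCl4 replicate 1, where it passed at an adjusted p of 0.00865 with 3.21% of all tested genes called lower. With median-ratio scaling and the same library left out it was -2.48 at an adjusted p of 0.0452, with 4.32% called lower. Without DEN+CCl4 replicate 3 it was -0.98 and did not pass. Over the same libraries Rps4x had 33.3, 26.3 and 30.1 FPKM in the DEN+CCl4 livers and 44.9, 18.3 and 37.5 FPKM in the controls, a log2 fold change of -0.08 (SE 0.90, adjusted p = 0.999 by limma) that was 0.40 after median-ratio scaling. Rpl6l, the other member annotated as a pseudogene, had 15.4, 11.5 and 3.65 FPKM in the DEN+CCl4 livers and 15.6, 6.87 and 14.7 FPKM in the controls, with 15.6% of its words its own.

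Rps27l (chr9:66946086-66949516, plus strand), whose human counterpart is a p53 target, differed from Rps27 in a ratio that does not depend on the scale of a library. Rps27l had 76.3, 63.9 and 20.1 FPKM in the DEN+CCl4 livers and 96.6, 70.7 and 107 FPKM in the controls, and Rps27 had 42.2, 45.7 and 23.2 FPKM in the DEN+CCl4 livers and 41.0, 23.1 and 45.1 FPKM in the controls. The ratio of Rps27l to Rps27 was 1.81, 1.40 and 0.863 in DEN+CCl4 replicates 1, 2 and 3, below every control, at 2.35, 3.06 and 2.37 in control replicates 1, 2 and 3. The log2 ratio differed by -0.99, and by -0.70 to -1.23 with 1 library left out. The exact two-sided permutation p was 0.1, the smallest that 3 against 3 libraries can give, and 0.5 after Benjamini-Hochberg adjustment over the 5 pairs tested, so it did not pass.

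Rps27 is hard to measure, since 1.27% of its words are its own and Rps27rt, a gene of nearly the same sequence, holds 98.7% of them. Against the sum of Rps27 and Rps27rt the ratio was 0.536, 0.411 and 0.262 in the DEN+CCl4 livers and 0.674, 0.909 and 0.7 in the controls, a log2 difference of -0.96. The groups did not overlap with that partner either, which was added after the first ratio had been seen. Rps27l itself had an adjusted p of 0.996 as deposited (log2 fold change -0.95, SE 0.99) and of 0.668 after median-ratio scaling (-0.48, SE 0.38), by limma.

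**Figure D4:**
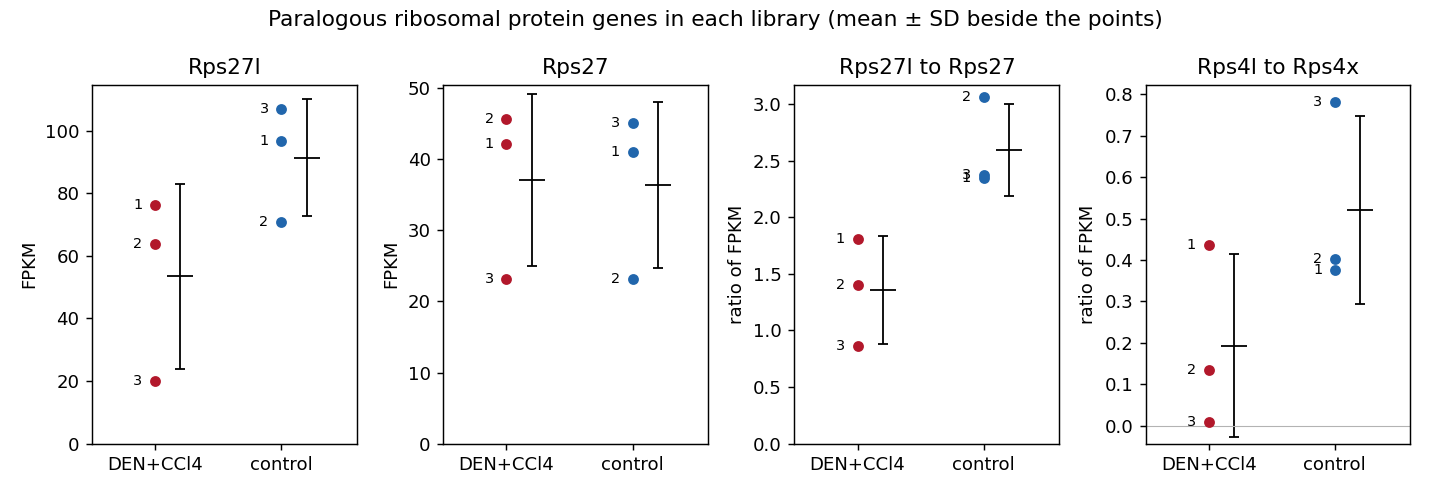
FPKM of Rps27l and Rps27, and the ratios of Rps27l to Rps27 and of Rps4l to Rps4x, by library; points carry the replicate number and bars are the mean ± SD (n = 3 each). The ratio of Rps27l to Rps27 lies between 0.863 and 1.81 in DEN+CCl4 livers and between 2.35 and 3.06 in control livers, while the ratio of Rps4l to Rps4x overlaps between the groups.

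The other paralog pairs gave no separation. The ratio of Rps4l to Rps4x was 0.437, 0.134 and 0.00865 in the DEN+CCl4 livers and 0.375, 0.403 and 0.782 in the controls, a log2 difference of -2.62 with an exact permutation p of 0.300 (0.750 adjusted over the 5 pairs). The log2 ratio differed by 0.02 for Rpl22l1 to Rpl22, by -0.32 for Rpl7l1 to Rpl7 and by 0.01 for Rpl36al to Rpl36a, with exact permutation p of 1.00, 0.5 and 1.00. The paralogs limited to muscle and testis were listed at or close to 0: Rpl3l, known from heart and skeletal muscle, was at most 0.160 FPKM and Rpl39l, known from the testis, at most 0.05 FPKM in any library, against means of 14.1 FPKM for Rpl3 and 14.8 FPKM for Rpl39.

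Rpl5 and Rpl11, which bind and hold back Mdm2 when ribosome assembly fails and so stabilize p53, took opposite places as deposited in the library that stood apart, and the same place after scaling. Rpl5 had 7.01, 5.88 and 8.19 FPKM in the DEN+CCl4 livers and 8.88, 4.0 and 6.27 FPKM in the controls. Rpl11 had 33.8, 26.5 and 13.7 FPKM in the DEN+CCl4 livers and 40.5, 19.1 and 37.3 FPKM in the controls. As deposited, Rpl5 in DEN+CCl4 replicate 3 was higher than in any library but control replicate 1, while Rpl11 was at its lowest there. After median-ratio scaling both were highest in DEN+CCl4 replicate 3, at 23.0 FPKM for Rpl5 and 38.5 FPKM for Rpl11. The log2 fold change was 0.17 (SE 0.66) for Rpl5 and -0.39 (SE 0.88) for Rpl11, with an adjusted p of 0.996 by limma for both, and Rpl11 was at 0.07 after median-ratio scaling. Rpsa, which is also the laminin receptor precursor, had 92.8, 77.2 and 36.0 FPKM in the DEN+CCl4 livers and 119.9, 40.0 and 94.7 FPKM in the controls.

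Within DEN+CCl4 replicate 3 the genes were spread more widely than in any other library. The distance between the quartiles of their median-ratio scaled deviations was 0.95 log2 units there, against 0.19 and 0.31 units in DEN+CCl4 replicates 1 and 2 and 0.25, 0.31 and 0.12 units in the controls. Genes of low level lay higher in it: the 19 genes of lowest mean had a median deviation of 1.23 and the 19 of highest mean one of 0.35. Across the 79 genes, Spearman's rho between mean level and deviation was -0.44 in that library and lay between -0.18 and 0.25 in the other 5, and across the 3321 tested genes averaging 5 FPKM or more it was 0.02, -0.29 and -0.15 in DEN+CCl4 replicates 1, 2 and 3 and 0.16, -0.21 and 0.18 in the controls, so over all genes that library did not stand out. The points share their libraries and their mean includes the library in question, so these are descriptions. The order of genes in this library, such as Rpl9 at 2.18 and Rps14 at -0.54, is part of every fold change above.

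**Figure D5:**
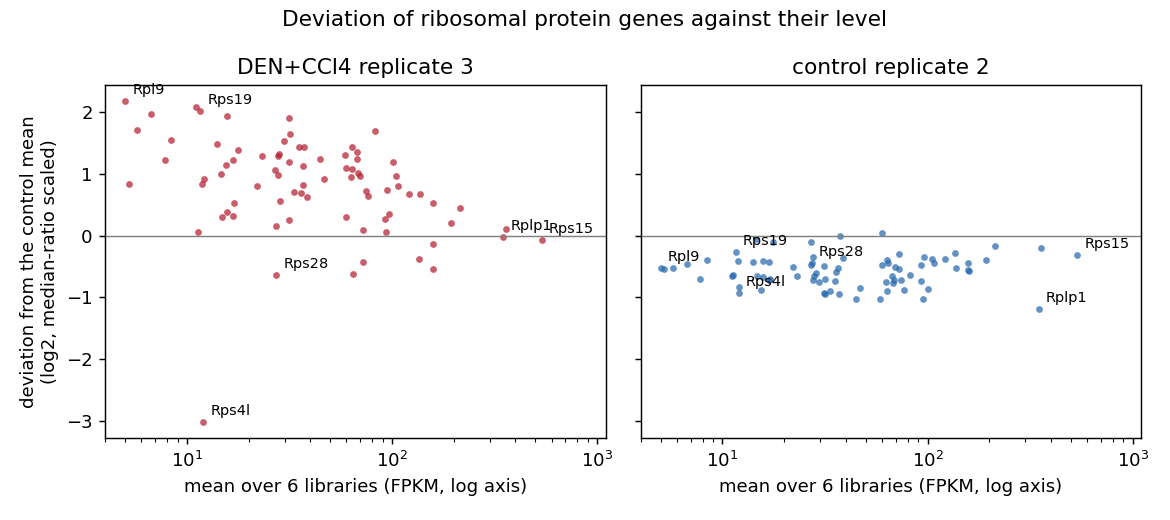
Median-ratio scaled deviation from the control mean (log2 units) against mean FPKM over 6 libraries (log axis) for the 79 tested genes, in DEN+CCl4 replicate 3 (left) and control replicate 2 (right). On the left Rpl9 lies highest at 2.18 and Rps4l lowest at -3.02, with high-level genes near 0, and on the right nearly all genes lie below 0 at any level.

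Genes of the translation machinery outside the name rule had no calls, against 1.48% of all tested genes called in either direction. With that share, 0 calls in lists this short says little about them. Of the 6 ribosomal proteins and related genes outside the name rule that the table lists, 0 passed, and their median log2 fold change was -0.40 as deposited and 0.08 after scaling. Of the 9 elongation factor genes tested 0 passed, and the largest of them, Eef1a1, had 528, 392 and 307 FPKM in the DEN+CCl4 livers and 871, 287 and 748 FPKM in the controls. The 23 other TOP genes, a list that shares members with the elongation factors, had 0 calls and median scaled deviations of -0.03, -0.34 and 0.89 in DEN+CCl4 replicates 1, 2 and 3 and of 0.38, -0.63 and 0.13 in the controls. Control replicate 2 was thus low and DEN+CCl4 replicate 3 high in that list, as in the ribosomal protein genes. The 42 initiation factor genes tested had 0 calls and smaller deviations, from -0.12 to 0.40.

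Genes that build ribosomes had no calls either, against the same 1.48% of all tested genes. The 95 ribosome biogenesis factors tested had median scaled deviations of 0.04, 0.18 and 0.23 in the DEN+CCl4 livers and of -0.08, 0.09 and 0.03 in the controls. The 12 RNA polymerase I and rDNA factors tested, the 15 host transcripts of small nucleolar RNAs, the 24 genes of the mTORC1 and S6 kinase axis and the 7 of the Myc network also had 0 calls, with median log2 fold changes as deposited of -0.03, 0.06, -0.22 and -0.34, beside -0.27 for all tested genes. The median scaled deviation in DEN+CCl4 replicate 3 was 0.45 for the RNA polymerase I and rDNA factors, 0.48 for the host transcripts, 0.02 for the mTORC1 and S6 kinase axis and -0.39 for the Myc network, against 0.91 for the ribosomal protein genes. Of the 8 genes on ribosomal stress and p53 tested, 1 was called higher, Cdkn1a, the p53 target that halts the cell cycle, against 0.833% of all tested genes. It had 1.22, 13.7 and 6.19 FPKM in the DEN+CCl4 livers and 0.620, 0.590 and 0.340 FPKM in the controls, a log2 fold change of 2.03 (SE 0.49, limma adjusted p = 0.00882). With a control mean of 0.517 FPKM, Cdkn1a passed the filter of 1 FPKM only through the DEN+CCl4 livers, where it was high. The 1 call among 8 genes therefore cannot be weighed against the share of all tested genes. On the deposited scale the call was lost without any single library other than DEN+CCl4 replicate 1, without which the adjusted p was 0.000299, and it was lost after median-ratio scaling (2.36, adjusted p = 0.453); over the alternatives the adjusted p ranged from 0.000299 to 0.972.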

How the data were processed

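The authors deposited 1 table of FPKM values with 2 decimals and 1 column per library, per the file headers; HISAT, StringTie and GRCm38 are named in the submitters' processing notes, with no version, annotation release, strand setting or treatment of multi-mapped reads stated there. Counts were not used here, so depth is unknown and no counting interval is given. A search of low values for a common read-sized step placed at best 32.0% to 35.8% of them per library within 0.1 of a whole multiple, so reads could not be recovered.

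Genes averaging 1 FPKM or more were tested on log2(FPKM + 1), which understates changes of low genes, with limma 3.58.1 in R 4.3.3 (two-sided moderated test with trended variance, all 6 libraries, no covariate) and Benjamini-Hochberg adjustment over 8528 genes at 0.05. The script was tested on simulated data. Ratios of paralogs had an exact permutation test. Means, counts and figures used Python 3.11.15, pandas 2.3.3 and matplotlib 3.10.9. Coordinates and 31-base words came from GENCODE M21 on GRCm38 and start sequences from RefSeq on GRCm38.p6.

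Members, lists and tests were chosen with earlier results of these data known. Genes were named by rule: the stalk genes, Rpsa, Rps6, Rpl5, Rpl11, Rps27a and paralog pairs, the 4 of highest mean, and the 5 highest and 5 lowest changes. Copies, Rpl6l, Rpl14 and the non-overlapping genes were named after their values were seen, as was the test of the ratios. Alternatives covered pseudocounts of 0.1 and 0.01, filters, scalings, limma settings, a replicate block and each library left out.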

Additional observations from a re-analysis of the deposited data

How the results depend on the processing

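Over 23 alternatives, 0 ribosomal protein genes were called higher in all of them and 0 lower in all but those that leave out DEN+CCl4 replicate 1, where 1 was called, Rps4l, so the count ran from 0 to 1. Rps4l, Rps27l, Rps28 and Rps2 stayed negative and Rps27a, Rps19, Rpl10, Rpl21 and Cdkn1a positive in every alternative run. The count of all genes called, 126 in the deposited scale, was 9 and 4 with pseudocounts of 0.1 and 0.01, 0 with no filter, 67 with a filter at 5 FPKM, 5 without mitochondrial genes, 421 with array weights, and 0 with median-ratio scaling, quantile normalization, scaling on the ribosomal protein genes or no intensity trend. With 1 library left out, under either scaling, it ran from 0 to 668. Whether the replicate numbers pair the samples could not be settled with 3 libraries per group. The correlations of same-numbered deviations were 0.0716, 0.416 and -0.146 as deposited and 0.0271, 0.493 and -0.0704 after median-ratio scaling. With the replicate block 62 genes were called higher and 32 lower, 0 of them ribosomal protein genes. The median fold change relative to all genes, 0.05, was 0.53 with quantile normalization and ran from -0.22 to 0.60 with 1 library left out. The number of genes without overlap, 1 as deposited, against 8.36% of all tested genes, was 6 with median-ratio scaling (14.2%), 22 with quantile normalization (14.9%), 2 without mitochondrial genes (8.77%), 6 when scaled on the ribosomal protein genes (13.3%), and 1 to 32 with 1 library left out (9.82% to 39.2%). The cause of these shifts was not tested.

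No sign change involved a call. With median-ratio scaling the log2 fold change turned to 0.32 for Rplp0, 0.00 for Rplp2, 0.21 for Rpsa, 0.42 for Rps6, 0.07 for Rpl11, 0.13 for Rpl39, 0.40 for Rps4x, 0.21 for Rpl7, 0.11 for Rpl36al, 0.09 for Rpl36a, 0.02 for Rps15, 0.22 for Rpl36 and 0.26 for Rpl38. With quantile normalization it turned to 0.60 for Rplp0, 0.30 for Rplp1, 0.13 for Rplp2, 0.48 for Rpsa, 0.67 for Rps6, 0.35 for Rpl11, 0.27 for Rpl39, 0.68 for Rps4x, 0.49 for Rpl7, 0.42 for Rpl36al, 0.28 for Rpl36a, 0.50 for Rps15, 0.65 for Rpl36, 0.67 for Rpl38, 0.03 for Rps14 and 0.40 for Eef1a1. Without mitochondrial genes Rplp0, Rps6 and Rps4x were at 0.04, 0.13 and 0.11, and scaled on the ribosomal protein genes at 0.05, 0.14 and 0.13. With array weights the values were 0.10 for Rplp2, -0.04 for Rps27, -0.07 for Rpl22, 0.15 for Rpl36al, 0.00 for Rps15, 0.16 for Rpl36, 0.08 for Rpl38 and -0.07 for Rpl9. With 1 library left out, under either scaling, the values ran from -0.61 to 0.66 for Rplp0, -1.33 to 0.14 for Rplp1, -0.86 to 0.37 for Rplp2, -0.73 to 0.53 for Rpsa, -0.41 to 0.72 for Rps6, -0.09 to 1.05 for Rpl5, -0.72 to 0.33 for Rpl11, -0.15 to 0.81 for Rpl3, -0.66 to 0.32 for Rpl39, -0.45 to 0.84 for Rps4x, -0.27 to 0.67 for Rps27, -0.08 to 0.52 for Rpl22l1, -0.16 to 0.85 for Rpl22, -0.71 to 0.08 for Rpl7l1, -0.76 to 0.71 for Rpl7, -0.72 to 0.34 for Rpl36al, -0.73 to 0.34 for Rpl36a, -0.81 to 0.22 for Rps15, -0.61 to 0.42 for Rpl36, -0.52 to 0.32 for Rpl38, -0.04 to 1.12 for Rpl9, -1.18 to 0.03 for Rps14 and -1.02 to 0.34 for Eef1a1. Where 1 library of a group of 3 was left out, the leave-one-out fits pool the spread over both groups. The ratios with a library left out and the Rps27rt partner were added after the data were seen.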
